A study of Mus musculus with 8 samples.

Results

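Where the annotated spans of 2 or more protein-coding genes overlap, a sequencing read cannot be given to one gene by position alone. Of the 33774 sites counted in m6A-eCLIP libraries of αTC1-6 cells, 1272 lay on a nuclear chromosome inside the RefSeq spans (mm10, assembly GRCm38.p6) of at least 2 protein-coding genes. The rule used annotation alone and no measured value. These sites fell into 343 gene sets: 328 gene pairs with 1234 sites, and 15 sets of 3 or more genes with 38 sites. The sets held 686 genes, and 131 of them had 1 site each. A set had a median of 2 sites and at most 22. Every one of the 1272 sites was 1 base long, and 911 of them (71.62%) had another within 100 bases, so neighbouring sites were not independent.

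αTC1-6 is a mouse pancreatic alpha cell line. Cells received either scramble siRNA (SCR) or siRNA against Mettl14 (M14KD), and each genotype gave 2 Input libraries and 2 libraries made with an antibody against m6A (IP), 8 in all. Libraries 1 and 2 were SCR and libraries 3 and 4 were M14KD in both kinds. All come from this 1 cell line, and the knockdown is by siRNA rather than a deletion. Whether the libraries of a group derive from different cultures is not stated in the labels, and p-values here reflect only the spread between libraries, which may be technical.

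N6-methyladenosine (m6A) is written on messenger RNA by a complex in which Mettl3 is the catalytic subunit and Mettl14 helps hold the RNA, mostly at an A within a GGAC-like sequence. In mRNA the mark is known to lie mainly near stop codons and in long internal exons, and to be sparse near transcription starts. Overlapping genes come in several forms: convergent genes point at each other and share 3′ ends, divergent genes point away and share 5′ ends, and a nested gene lies wholly inside a host, often in an intron.

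Both strands were at hand for 240 pairs (826 sites), of which 187 were on opposite strands. There were 115 convergent pairs (390 sites), 40 divergent pairs (63 sites), 32 pairs with one gene nested antisense in the other (166 sites), 34 nested on the same strand (153 sites) and 19 overlapping in part on the same strand (54 sites). For the other pairs a strand was not used here: 28 were nested (161 sites) and 60 overlapped in part (247 sites). The shared stretch of a pair had a median length of 2646 bases. Predicted genes (Gm and Rik names) took part in 53 sets, and 27 sites also lay in the span of a noncoding gene. The largest set, of 23 genes, was in the protocadherin gamma cluster, where alternative first exons are spliced to shared constant exons.

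Sequence around the sites could be read where a site and 10 bases on each side lay inside a RefSeq promoter window (250 bases before to 50 after a gene's start), which held for 47 of the 1272 sites and 731 sites in all. The letters GGAC, with the A at the counted base, were found on either strand at 5 of the 47 sites (10.6%) and at 37 of the 731 (5.06%). At other offsets GGAC stood at a mean of 0.463% of the 731 sites per strand. Anywhere in the window and on either strand, 87.7% of 32851 promoters held GGAC, so the presence of the letters in a promoter distinguishes little. Their place on the counted base was itself a ground for reading site starts as 0-based. The excess there over other offsets is therefore not an independent result. The shorter GAC, which every GGAC contains, had its A at the counted base in 9 of 47 sites (19.1%) and 70 of 731 (9.58%). The counted base was A or T, and so an A on 1 of the strands, at 63.8% of the 47 and 56.4% of the 731. At the rest it was C or G, with no A there on either strand. The 5 GGAC windows are printed below to show the letters around the counted base. All are plus-strand sequence of GRCm38.p6, 5′ to 3′, and capitals mark GGAC or its reverse complement GTCC.
Tyw5/Maip1, chr1:57406642-57406662: aaatgagaGGACtcacccgag
Hnrnpdl/Enoph1 first site, chr5:100039246-100039266: agggccacaGTCCctcttgcc
Hnrnpdl/Enoph1 second site, chr5:100039314-100039334: gcgccctcaGTCCcctagtgc
Mllt11/Cdc42se1, chr3:95228438-95228458: cagttaattGTCCtctaactt
Mrpl43/Twnk, chr19:45005671-45005691: cctctcacgGTCCaaagcgcc
At Tyw5/Maip1 the motif read on the plus strand, that of Maip1. At the other sites it read on the minus strand, that of Hnrnpdl, Mllt11 and Mrpl43. All 5 sites were in divergent pairs, whose genes lie on opposite strands, so either strand is that of 1 gene of the pair, and a match is a description of letters, not an assignment of reads.

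A second group of windows is printed because M14KD and SCR libraries were compared at these sites below; here the capital marks the counted base alone.
Galns/Trappc2l, chr8:122611640-122611660: tgtggcgcacAgcctgccaat
Galns/Trappc2l, chr8:122611650-122611670: agcctgccaaTatggcggtgt
Tk1/Afmid, chr11:117825791-117825811: aaaccttagtTagcaccgaga
Hnrnpk/Rmi1, chr13:58402439-58402459: gcggagaagcAgaggataatg
Mbd6/Ddit3, chr10:127290790-127290810: tgaggtcagtTatcttgagcc
None of the 5 held GAC with its A at the counted base on either strand.

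Total counts were 3438530 to 3637740 in the Input libraries and 10207383 to 10918559 in the IP libraries. Sites in overlapping genes took 2.159 to 2.225% of Input counts and 3.583 to 3.728% of IP counts, with a median count per site of 35 to 36 in Input and 176 to 185 in IP. Mettl14, which lay in no overlapping set, had 2 sites, with Input counts of 64 and 44 in SCR against 32 and 22 in M14KD, and IP counts of 78 and 81 against 42 and 25. Neither difference passed the test (edgeR adjusted p = 0.24 in Input and 0.149 in IP). Mettl3 had no site. Of 5 alpha cell markers 3 had sites (Gcg, Irx2 and Ttr), as did 1 of 17 markers of other cell types (Sox9).

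IP over Input, the fitted log2 ratio of IP to Input counts within a genotype, shows which sites the antibody recovered more or less than the bulk of sites. In SCR, 833 of 1257 tested sites in overlapping genes were called (66.3%; edgeR, Benjamini-Hochberg adjusted p under 0.05), 428 higher (34.0%) and 405 lower (32.2%). Over all 33356 tested sites 67.4% were called, 34.0% higher and 33.4% lower, so as a whole these sites were split as the table was. In M14KD, 826 were called, 425 higher and 401 lower, where 66.9% of all sites were called, 33.8% higher and 33.1% lower. The ratios depend on the scaling: TMM put the median of all sites at 0.06 in SCR, and plain column totals put it at 0.77, where 770 of these sites were higher and 186 lower (763 and 188 in M14KD). The share of all sites called with column totals is not given here, but their ratios moved likewise. With column totals 75.7% of these sites and 73.1% of all sites had ratios above 0 in SCR, and 74.5% and 72.8% in M14KD. Classes and genes are therefore described below by their distance from the bulk of sites.

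Overlap classes differed in where their sites stood. Divergent pairs were low, with a median log2 ratio of -0.83 in SCR, 16.7% of sites higher and 65.0% lower. Genes nested antisense in a host had a median of 0.39, with 46.4% higher and 21.7% lower, and genes nested on the same strand had a median of 0.36, with 39.1% higher and 21.2% lower. Convergent pairs lay near the bulk, at -0.03 (31.8% higher, 35.9% lower). These are descriptions without a test between classes. Relative to the median of all sites, the divergent median differed by -0.93 to -0.88 in SCR under the 10 other settings tried, and the antisense nested median by 0.24 to 0.53. In each of the 4 pairs of IP and Input libraries with the same number, the divergent median lay below that of all sites (on column totals, -0.16, -0.20, -0.22 and -0.22 against 0.64, 0.66, 0.66 and 0.63) and the antisense nested median above it (0.94, 1.17, 1.17 and 1.03).

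**Figure D1:**
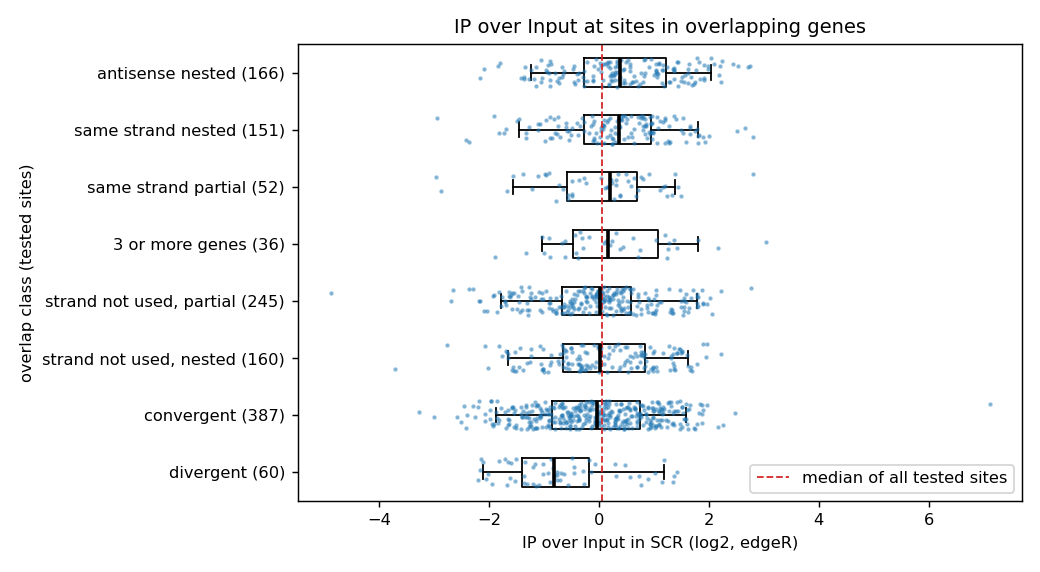
IP over Input in SCR (log2, edgeR, horizontal axis) of each tested site by overlap class, with the number of tested sites in parentheses. Boxes show the median and quartiles, whiskers the 5th to 95th percentiles, and the dashed line the median of all tested sites, 0.06. The divergent class, with a median of -0.83 and an upper quartile of -0.18, is the one whose whole box lies left of the line, and the point near 7 is a Fam71e1/Mybpc2 site with 0 Input counts in SCR.

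Counting each gene set once gave a like picture in SCR for divergent, antisense nested and same strand nested sets, but not for every class. Same strand pairs overlapping in part went from a median of 0.21 by sites to -0.15 by sets. Nested pairs without a strand went from 0.01 to 0.23. In M14KD the antisense nested median was 0.46 by sites and 0.25 by sets. Of 37 divergent sets tested, 2 were higher and 28 lower, with a median of -1.0, beside a median of 0.04 over all 6718 genes and gene sets tested. Antisense nested sets had a median of 0.41 (15 higher and 6 lower of 32) and same strand nested sets 0.40 (17 higher and 5 lower of 33). Over all classes, 106 of 334 sets were higher and 118 lower in SCR, where 69.8% of all features were called, 35.2% higher and 34.6% lower. In M14KD 98 were higher and 120 lower, where 70.8% of all features were called, 35.4% higher and 35.4% lower. With column totals, which also raised the ratios of all sites, these splits became 191 and 54 in SCR and 189 and 50 in M14KD. The split of all features in that setting is not given here.

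The classes also differ in position. Sites of divergent pairs lay a median of 201 bases from the nearest annotated 5′ end. The 49 tested ones within 500 bases of a 5′ end had a median of -0.83 (20.4% higher, 59.2% lower), and the 11 farther from both 5′ ends a median of -0.87 (0% higher, 90.9% lower). Among sites in 1 protein-coding gene only, those within 500 bases of its 5′ end were also low, with a median of -1.07, 5.17% higher and 76.4% lower (1064 tested). Convergent sites lay a median of 536 bases from the nearest 3′ end. The 185 tested ones within 500 bases of a 3′ end had a median of -0.28 (24.3% higher, 45.4% lower), beside -0.30 (27.7% higher, 46.4% lower) for single-gene sites as close to their 3′ end. Same strand pairs overlapping in part had a median of -0.72 for the 12 tested sites near a 5′ end and 0.26 for the 40 others. The part of position in the class differences was not tested.

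All 10 divergent sites that were higher came from 2 pairs. Slc33a1, an acetyl-CoA transporter, and Gmps, GMP synthase, shared 7 sites, all 7 higher, with ratios of 0.57 to 1.36. Across the pair, Slc33a1/Gmps had mean CPM (counts-per-million of the library total) of 56.8 in SCR Input and 196 in SCR IP, and a ratio of 1.10 (SE 0.10, edgeR adjusted p = 8.52e-08). Hnrnpdl, an RNA-binding protein of the hnRNP family, and Enoph1, an enzyme of methionine salvage, shared 5 sites inside a stretch of 909 bases, of which 3 were higher. Its 2 GTCC sites printed above had ratios of 0.47 (SE 0.30) and 0.29 (SE 0.28) and were not called. The highest of the 5, at 1.43 (SE 0.23, edgeR adjusted p = 3.12e-06), has a C at the counted base and so no A there on either strand. The rest of both genes was low: 4 sites in Hnrnpdl alone gave -1.23 (SE 0.12) and 2 in Enoph1 alone -1.20 (SE 0.17).

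Most of the other divergent sites were low, as in Hnrnpk/Rmi1. Hnrnpk encodes an RNA-binding protein and Rmi1 a subunit of the complex that dissolves recombination intermediates, and neither had a site outside the 1096 shared bases. The 3 shared sites had Input counts of 1275 and 1196 in SCR and 1361 and 1205 in M14KD, and IP counts of 1831 and 1754 against 2074 and 1917. IP counts exceeded Input counts by less than the library totals did: the ratio in SCR was -1.72 (SE 0.08, edgeR adjusted p = 5.75e-11) and all 3 sites were lower. Pfn1, the actin-binding profilin, and Eno3, muscle enolase, shared 5 sites, all lower, with a ratio of -0.75 (SE 0.08).

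In nested pairs the shared sites were often the only counted sites of either gene. By construction the inner gene has no stretch of its own, so the host is the partner that could have sites elsewhere. In 60 of the 94 nested pairs the host had no site outside overlaps; in 12 of these 60 pairs the host also overlaps a further gene of the 343 sets, and 2 of the 94 pairs have identical spans. In 37 pairs the inner gene covered under 10% of the host's span, and these shared stretches held 220 sites. The host had no site outside overlaps in 23 of the 37, a share close to the 60 of all 94. Pairs were included only where the overlap itself held a site. Prkg1, a cGMP-dependent kinase, spans 1200782 bases, and all 9 of its sites lay in the 3752 bases (0.312%) of Cstf2t, a variant of a cleavage stimulation factor subunit on the other strand. The same held for Pip5k1b and Fam122a (9 sites in 0.65% of the host), Astn2 and the ubiquitin ligase Trim32 (8 sites in 1.1%), the integrin Itga1 and the ribosome rescue factor Pelo (8 sites in 1.25%), Fam189a1 and the SMC5/6 subunit Nsmce3 (7 sites in 0.339%), Herc3 and the imprinted retrogene Nap1l5 (16 sites in 2.13%), Shc4 and Eid1 (12 sites in 2.63%) and Wnt5b and Fbxl14 (13 sites in 3.76%). Counts do not tell which gene of a pair the reads came from.

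Several of these nested pairs were among the highest in IP over Input. Prkg1/Cstf2t had SCR Input counts of 317 and 308 and IP counts of 4725 and 4579, a ratio of 1.64 (SE 0.10). In M14KD it had 285 and 333 in Input and 4516 and 4645 in IP, a ratio of 1.65 (SE 0.10). Fam189a1/Nsmce3 had a ratio of 1.67 (SE 0.11) in SCR and 1.75 (SE 0.11) in M14KD, with 6 of its 7 sites higher and none lower in SCR. Wnt5b/Fbxl14 stood at 1.14 (SE 0.08) and 1.25 (SE 0.08), with 11 sites higher and 1 lower, and Pip5k1b/Fam122a at 1.32 (SE 0.09) and 1.16 (SE 0.09). Herc3/Nap1l5 had 11 sites higher and none lower, with a ratio of 0.99 (SE 0.12). Astn2/Trim32 did not follow, at -0.01 (SE 0.13), with 1 site higher and 3 lower. Levels and folds here are of the shared stretch, whichever gene it belongs to.

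Over all 328 pairs, both partners had sites of their own in 42, 1 partner in 139 and neither in 147. Where a partner did have sites of its own, these could stand far from the shared ones. Hspa5 encodes the endoplasmic reticulum chaperone BiP, and Rabepk, which meets it tail to tail, a kelch-repeat partner of Rab9. Hspa5/Rabepk had the most reads of any set: 22 sites within the 1921 shared bases (chr2:34774609-34776529) gave 7207 and 6459 Input counts in SCR and 7913 and 6739 in M14KD, and 44440 and 40063 IP counts against 45848 and 42092. The shared sites as a sum had a ratio of 0.37 (SE 0.07) in SCR, and the 3 sites in Hspa5 alone -2.01 (SE 0.09). Rabepk alone had no site. Along the shared stretch the ratio was lowest, -2.43 (SE 0.11), at the first site, 994 bases in, and highest, 1.55 (SE 0.10), 1582 bases in, before a last site at -1.19 (SE 0.10). Input levels at these same sites were alike, at 92.9, 66.5 and 76.0 CPM in SCR, while IP levels were 28.3, 320 and 54.6 CPM.

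**Figure D2:**
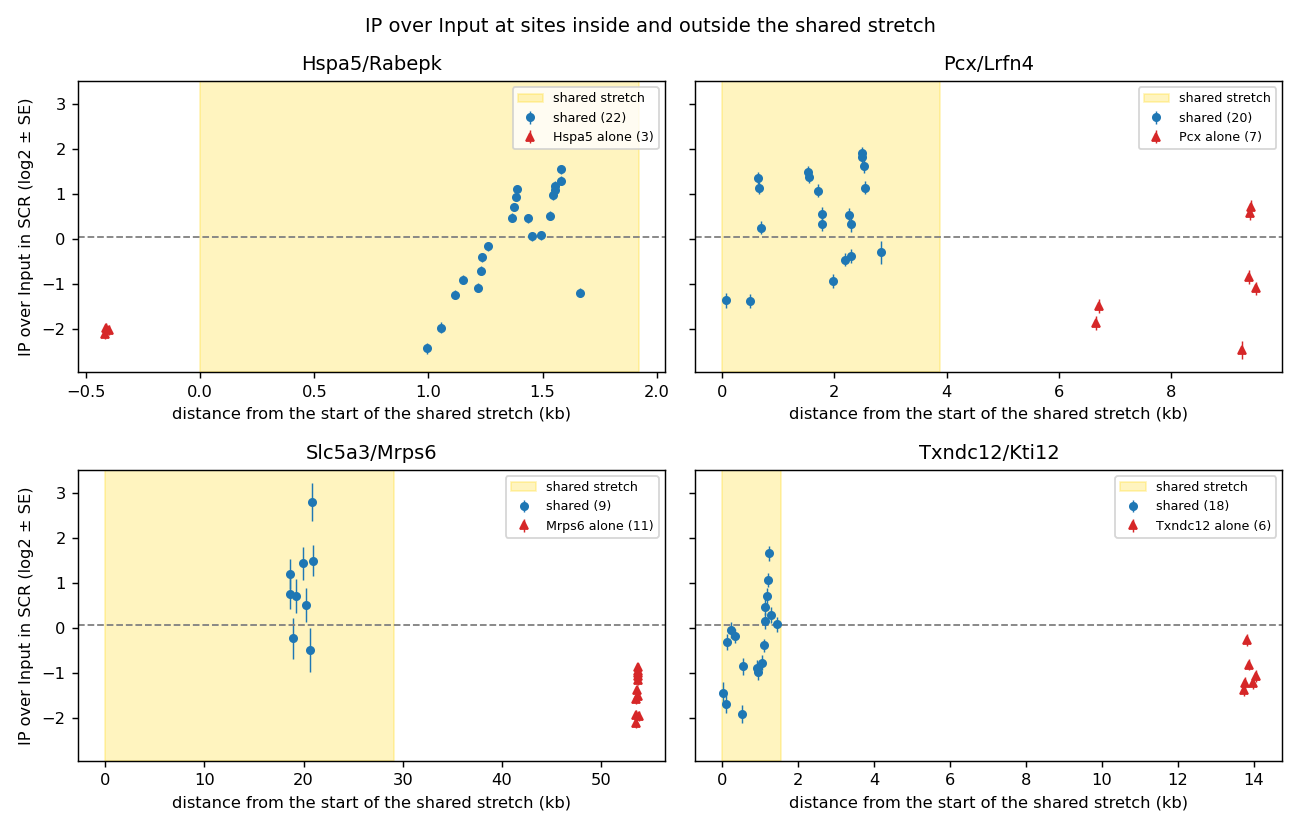
IP over Input in SCR (log2 ± SE, vertical axis) of each site against its distance in kilobases from the start of the shared stretch (shaded) for 4 gene pairs. Circles are sites in both genes and triangles sites in 1 gene alone, and the dashed line is the median of all tested sites. In Slc5a3/Mrps6 all 11 sites of Mrps6 alone lie below every shared site, though the bar of the lowest shared site reaches into their range. In Hspa5/Rabepk the ratio climbs within the stretch.

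Slc5a3, the sodium/myo-inositol cotransporter, and Mrps6, a mitochondrial ribosomal protein, lie on the same strand. Their 9 shared sites had ratios of -0.49 to 2.80 in SCR, and the 11 sites in Mrps6 alone -2.12 to -0.88. The fitted values did not overlap, but the lowest shared ones were imprecise, at -0.49 (SE 0.49) and -0.23 (SE 0.46). These lay at 1.52 and 2.07 CPM in SCR Input, and the nearest site in Mrps6 alone had -0.88 (SE 0.11). None of the shared sites had enough Input reads to enter the Input comparison. Mrps6 alone had 916 CPM in SCR Input and the shared sites 17.7. Txndc12, a thioredoxin-like protein of the endoplasmic reticulum, hosts Kti12, an Elongator-associated gene on the same strand: the 18 shared sites ran from -1.91 to 1.66 and the 6 in Txndc12 alone from -1.39 to -0.27. For Zc3h11a, an RNA export factor, and its intronic gene Zbed6, derived from a transposon, the 3 shared sites (0.58 to 2.51) were at 2.62 CPM in SCR Input and the 18 of Zc3h11a alone (-1.52 to 1.38) at 189 CPM. Cox20/Hnrnpu and Gps2/Eif5a went the other way: their shared stretches were at -2.94 (SE 0.16) and -2.98 (SE 0.16), while Hnrnpu alone had -0.18 (SE 0.10) over 6 sites and Eif5a alone, a translation factor, -0.52 (SE 0.10) over 5. The differences within pairs were not tested.

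Ratios varied widely within a gene set. In the 23 sets with 10 or more tested sites the range from lowest to highest site had a median of 3.03 log2 units (1.41 to 4.39). Sites called both ways were in 20 of the 23, where 34.0% of all tested sites were higher and 33.4% lower. The like count and range for single genes with as many sites are not given here, so neither is shown to be particular to overlaps. Wnt5b/Fbxl14 had the highest median of these, 1.23, and Ncaph2/Sco2/Tymp, a stretch in 3 genes, the lowest, -0.65. Crebl2/Gpr19, with 21 shared sites and none in either gene alone, ran from -1.46 to 2.22, and its summed ratio was 0.93 (SE 0.07). Rnf139/Tatdn1 (22 sites) had 14 sites higher and 1 lower, Dedd/Nit1 (14 sites) 7 and 1, and Nup62/Il4i1b (18 sites), which includes a nuclear pore protein, 8 and 3. Gm16286/Txnl4a (22 sites), Chtf8/Derpc (20 sites) and Npcd/Cbx6 (14 sites) had more sites lower than higher: 12 against 6, 12 against 7 and 9 against 1. All 8 sites of Noc2l/Samd11 were lower (-1.33, SE 0.08, for their sum).

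**Figure D3:**
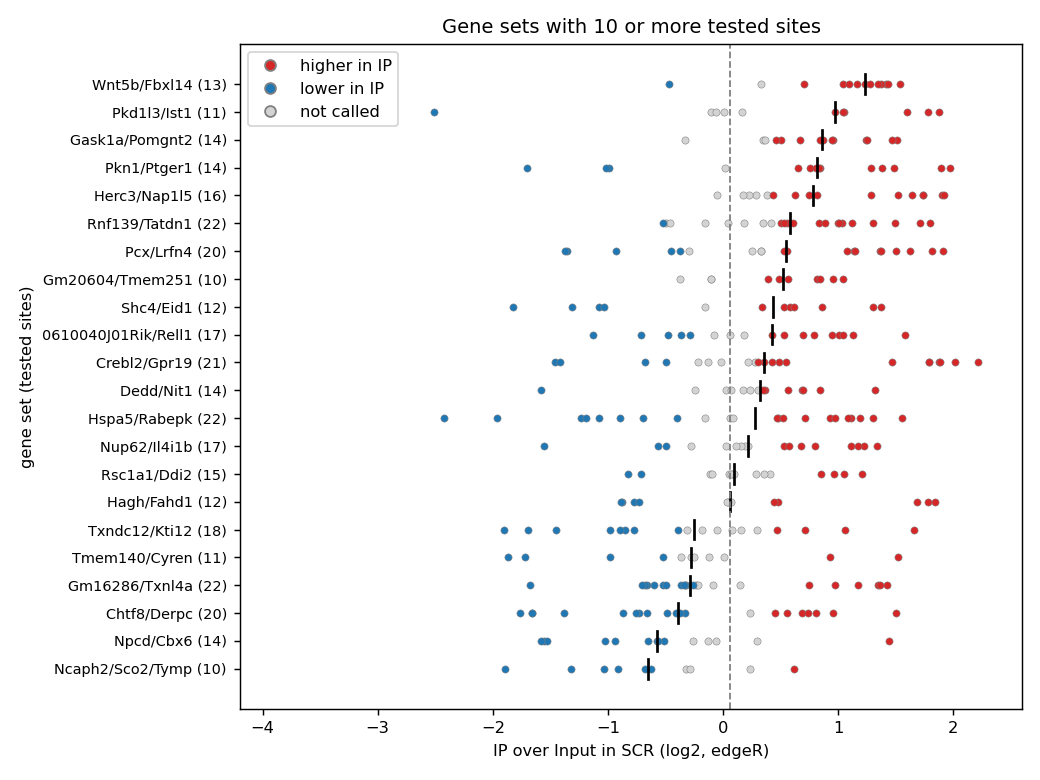
IP over Input in SCR (log2, edgeR, horizontal axis) of each site in 22 of the 23 gene sets with 10 or more tested sites, ordered by their median (black bar). Points are coloured by the call at an adjusted p under 0.05, and most sets hold sites of more than 1 colour. Medians run from 1.23 in Wnt5b/Fbxl14 to -0.65 in Ncaph2/Sco2/Tymp.

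From each gene set, the called site with the lowest p was taken. Among the highest of these ratios in SCR were Slc5a3/Mrps6 (2.80, SE 0.42), Gm21992/Rbm4b (2.75, SE 0.19) and Fam189a1/Nsmce3 (2.65, SE 0.18). Prkg1/Cstf2t (2.52, SE 0.16) and Zc3h11a/Zbed6 (2.51, SE 0.48) were also among them. All had edgeR adjusted p of 3.15e-05 or less. Another Fam189a1/Nsmce3 site reached 2.80 (SE 0.19), and the highest in Prkg1/Cstf2t 2.71. SCR Input counts were only 3 and 4 at the Slc5a3/Mrps6 site and 2 and 4 at the Zc3h11a/Zbed6 site. Neither of these sites entered the Input comparison. Fam71e1/Mybpc2 had a site with 0 Input counts in both SCR libraries and 35 and 23 in IP, at least 6.51-fold higher in IP against a floor of 3 counts over both Input libraries, on column totals. In M14KD a Ctu2/Piezo1 site had 0 Input counts and 7 and 8 in IP, at least 1.7-fold higher by the same floor. The lowest ratios were in AY074887/Psma4 (-4.89, SE 0.46), at a site in the Psma4 promoter window with Input counts of 19 and 20 and IP counts of 3 and 3, and in Gm27021/Emc8 (-3.72, SE 0.18), Cox20/Hnrnpu (-3.29, SE 0.15), Gps2/Eif5a (-3.00, SE 0.14), Ubl4a/Gm44504 (-2.97, SE 0.14) and Taf9/Ak6 (-2.94, SE 0.14). Psma4 encodes a proteasome subunit, Cox20 an assembly factor of cytochrome c oxidase and Taf9 a subunit of the general transcription factor TFIID.

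M14KD and SCR were then compared within the IP libraries, which asks what the siRNA changed in antibody-bound RNA. Of 1259 tested sites in overlapping genes 5 were called (0.397%), all higher in M14KD, where 0.63% of all 33348 tested sites were called (0.255% higher and 0.375% lower). The share called is thus no higher than the background. At an unadjusted p under 0.05 there were 193 sites (15.3%, against 13.3% of all sites), and DESeq2 called none and had 74 at that level. The median difference was 0.05, against 0.01 over all sites, and it stayed 0.04 to 0.05 above that of all sites under the 10 other settings.

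At chr11:30977399 in Asb3/Chac2 SCR had IP counts of 147 and 145 against 217 and 208 in M14KD, and Input counts of 18 and 28 against 34 and 28. Asb3 is an ankyrin and SOCS box protein and Chac2 a glutathione-degrading enzyme. Both M14KD IP libraries were above both SCR IP libraries. In CPM the M14KD Input libraries, at 9.41 and 8.14, were also above the SCR Input libraries, at 4.98 and 7.70. The IP difference was 0.61 (SE 0.13, edgeR adjusted p = 0.0318). It passed in all settings tried except without library 3 (adjusted p = 0.379), without library 4 (0.0994) and in DESeq2, which gave no adjusted p.

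Far2/Ergic2 shares the tail ends of a fatty acyl-CoA reductase gene and a gene of the Golgi intermediate compartment, and neither had a site of its own. At chr6:148181434 SCR had IP counts of 368 and 306 against 460 and 428 in M14KD, a difference of 0.47 (SE 0.11, adjusted p = 0.0447). Input counts there were 123 and 95 against 105 and 114 and overlapped. At the Galns/Trappc2l site chr8:122611660, printed above, SCR had IP counts of 506 and 490 against 640 and 603 in M14KD, a difference of 0.39 (SE 0.09, adjusted p = 0.0495), with Input counts of 168 and 185 against 178 and 175. Galns encodes a lysosomal sulfatase and Trappc2l a vesicle-tethering subunit. The second Galns/Trappc2l site, 10 bases away, gave 0.42 (SE 0.10) and did not pass, at an adjusted p of 0.0513.

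The last 2 called sites, chr19:4613322 and chr19:4613326, lay 4 bases apart in Pcx/Lrfn4 and so are close to 1 observation. Pcx encodes pyruvate carboxylase, which feeds the citric acid cycle, and Lrfn4, on the opposite strand inside it, a synaptic adhesion protein. At the second site SCR had IP counts of 1061 and 1203 against 1368 and 1452 in M14KD, and Input counts 92 and 88 against 123 and 114, so both kinds of library were higher in M14KD without overlap. The IP difference was 0.39 (SE 0.09, adjusted p = 0.0449) and the Input difference 0.46 (SE 0.16), which did not pass (adjusted p = 0.39). The 7 sites of Pcx alone gave -0.31 (SE 0.11) in IP and -0.22 (SE 0.10) in Input, and the 20 shared sites as a sum 0.32 (SE 0.07) and 0.24 (SE 0.08), none of which passed in edgeR with all libraries. The sum in IP was called by DESeq2 (0.31, adjusted p = 0.0482) and by edgeR without library 2 (0.36, adjusted p = 0.0392).

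**Figure D4:**
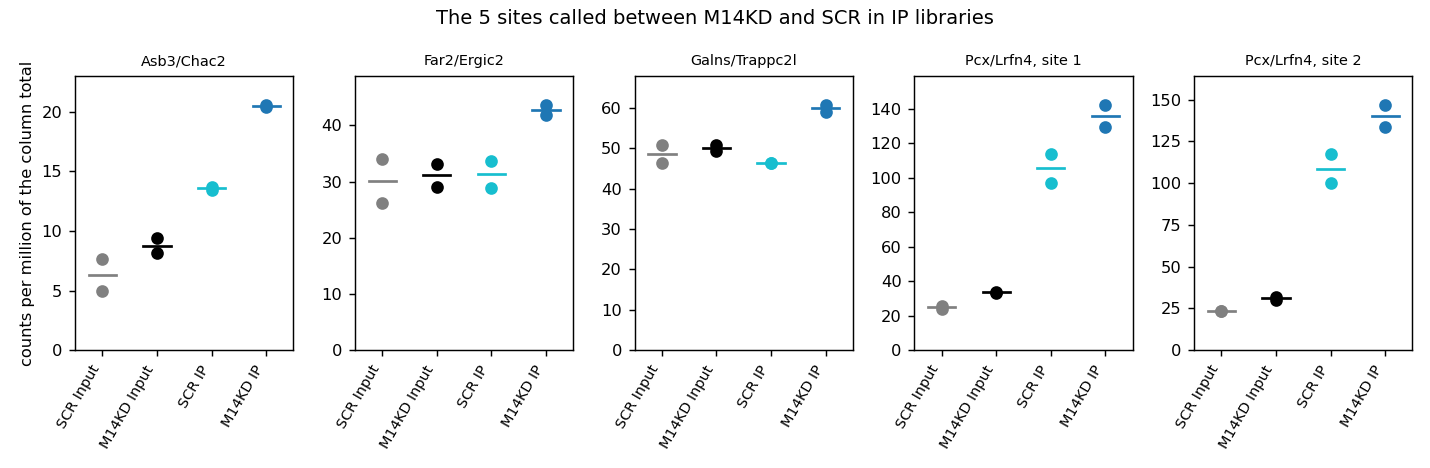
CPM of the column total (vertical axis, from 0) in each of the 8 libraries at the 5 sites called between M14KD and SCR in IP. Points are single libraries and bars the mean of the 2 libraries in a group. In every panel both M14KD IP points lie above both SCR IP points, and the Input groups overlap at Far2/Ergic2 and Galns/Trappc2l.

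The calls other than Asb3/Chac2 were close to the threshold. They did not pass in DESeq2 (adjusted p of 0.0592 to 0.116), with column totals (0.0504 to 0.0646) or without a filter on low counts (0.0522 to 0.0577). Single libraries decided the count. It rose well above 5 when library 1 was left out, and no call was left without library 3 or without library 4. Several of the sites added without library 1 were neighbours in Herc3/Nap1l5. The share of all sites called in these settings is not given here. Leaving out a library leaves 1 in its group, which is then assumed to vary like the other group.

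Sites that came next did not pass. At Tk1/Afmid, a divergent pair of thymidine kinase and a kynurenine pathway enzyme, SCR had IP counts of 301 and 306 against 410 and 376 in M14KD (0.45, SE 0.10, edgeR adjusted p = 0.0518). On the lower side, Abi2/Raph1, a pair of actin regulators, had 200 and 214 against 124 and 143 (-0.56, SE 0.14, adjusted p = 0.0694). Macf1/D830031N03Rik, in a cytoskeletal linker gene, had 34 and 34 against 15 and 12 (-1.25, SE 0.31, adjusted p = 0.071). Wnt5b/Fbxl14 had 478 and 439 against 328 and 331 (-0.40, SE 0.10, adjusted p = 0.0729), and Cep250/6430550D23Rik, which holds a centrosome gene, 74 and 76 against 38 and 43 (-0.81, SE 0.21, adjusted p = 0.0837). The M14KD and SCR IP libraries of these 5 sites did not overlap, which the rule for naming them required.

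Summed over gene sets, none of 335 tested sets passed in IP (edgeR), as for all 6716 features (0.0%). There were 55 at an unadjusted p under 0.05 (16.4%, against 14.4% of all). DESeq2 called 3 sets, and the share of all features that it called is not given here. Galns/Trappc2l (0.40, SE 0.11) and Pcx/Lrfn4 (0.31, SE 0.09) were higher, both at a DESeq2 adjusted p of 0.0482. Wnt5b/Fbxl14 was lower (-0.33, SE 0.09, DESeq2 adjusted p = 0.0213). In Wnt5b/Fbxl14 summed IP counts of SCR were 6405 and 5908 against 4702 and 4625 in M14KD, and the Input counts 576 and 593 against 421 and 414, so both kinds of library were lower in M14KD without overlap. Wnt5b is a secreted Wnt ligand and Fbxl14 an F-box protein of a ubiquitin ligase, and since no site lay in Wnt5b outside Fbxl14, the values describe the 4219 bases of the inner gene.

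In the Input libraries no site in an overlapping set passed among 1128 tested (lowest edgeR adjusted p = 0.154), where 0.0929% of all sites were called (0.0697% higher and 0.0232% lower). There were 95 at an unadjusted p under 0.05 (8.42%, against 8.69% of all), and DESeq2 called 0 and had 9. The smallest p belonged to Shc4/Eid1 at chr2:125674089, where SCR had Input counts of 30 and 21 against 54 and 45 in M14KD (1.01, SE 0.26, adjusted p = 0.154) and IP counts 338 and 304 against 341 and 347. Tti2/Mak16 had 100 and 105 against 131 and 157 (0.55, SE 0.15), and on the lower side Cmtr1/Ccdc167, with the cap methyltransferase Cmtr1, had 70 and 71 against 38 and 42 (-0.76, SE 0.21). Of 294 gene sets tested 0 passed in edgeR and in DESeq2, with 24 and 9 at an unadjusted p under 0.05, and of all features 0.0% passed. The 24 sets in edgeR were 8.16%, against 10.3% of all features.

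Whether the ratio of IP to Input itself differed between the genotypes was tested as an interaction, which asks whether antibody recovery moved beyond the RNA itself. No site of 1257 and no set of 334 passed in edgeR, and none of the 33356 sites and 6718 features in all did (0.0%). At an unadjusted p under 0.05 there were 55 sites (4.38%, against 3.72% of all sites) and 10 sets (2.99%, against 2.72% of all features). DESeq2 called 0 and 0 with 21 and 2 at that level. The precision was limited: the median SE over sites was 0.28 log2 units. At Cep250/6430550D23Rik, chr2:155991624, Input counted 9 and 10 reads in SCR against 14 and 15 in M14KD, and IP 74 and 76 against 38 and 43, a change of -1.49 (SE 0.46, adjusted p = 1.0). At Rnf139/Tatdn1, chr15:58899208, they were 42 and 59 against 38 and 28 in Input and 517 and 473 against 610 and 511 in IP, a change of 0.80 (SE 0.26, adjusted p = 1.0).

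Genes of fixed lists that lay in overlapping sets were few. Of the lists of m6A machinery, polyadenylation and termination, double-stranded RNA binding and sensing, integrated stress response and alpha cell identity genes, 4 genes did. Cpsf7, a subunit of the cleavage factor that picks polyadenylation sites, overlaps Tmem216: Cpsf7/Tmem216 had IP counts of 476 and 473 in SCR and 425 and 363 in M14KD (-0.20, SE 0.10, edgeR adjusted p = 0.409). Ddit3, the stress factor CHOP, shares 77 bases at its start with Mbd6: Mbd6/Ddit3 had 1 site, printed above, with IP counts of 128 and 106 against 124 and 92 (-0.05, SE 0.18, adjusted p = 0.926). Trmt112, an activator of several methyltransferases including Mettl5, shares its 5′ end with Prdx5: Prdx5/Trmt112 had 222 and 215 against 245 and 215 (0.14, SE 0.12, adjusted p = 0.615), and a low ratio of IP over Input in SCR (-1.0, SE 0.15). Prkg1/Cstf2t had 4725 and 4579 against 4516 and 4645 (0.05, SE 0.07, adjusted p = 0.781). The IP libraries of the 2 genotypes overlapped in Mbd6/Ddit3 and Prkg1/Cstf2t and did not in Cpsf7/Tmem216. In Prdx5/Trmt112 the IP counts met at 215, while in CPM both M14KD libraries, at 23.2 and 21.1, were above both SCR libraries, at 20.3.

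The genes of these lists, tested at their sites outside overlaps, gave 0 calls between M14KD and SCR in IP or Input in edgeR. The median IP difference was 0.04 over 18 tested m6A machinery features of 28 genes, 0.04 over 19 polyadenylation features of 29 genes, -0.05 over 11 double-stranded RNA features of 26 genes, -0.20 over 18 stress response features of 20 genes and 0.12 over 19 alpha cell identity features of 26 genes, beside 0.01 over all features. In IP over Input in SCR, 8 m6A machinery features were higher and 4 lower, 7 and 6 of polyadenylation, 5 and 5 of double-stranded RNA binding, 8 and 5 of the stress response and 9 and 7 of alpha cell identity, beside 35.2% and 34.6% of all features.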

How the data were processed

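Per the file headers, the 1 deposited table holds unnormalized counts of reads at each site in 8 libraries. UMI-tools, cutadapt and STAR, with mm10, are named in the submitters' processing notes; for versions, site calling and the counting window the sources used here give nothing, so neighbouring sites may share reads. Site starts were read as 0-based, on the ground that the A of GGAC then falls on the counted base, and positions are printed 1-based.

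RefSeq spans (GRCm38.p6) gave gene sets and RefSeq promoters gave strands and sequences; a genome was not used here. Counts, and their sums per gene set, were tested over the whole table with edgeR 4.0.16 (filterByExpr, TMM, quasi-likelihood test, R 4.3.3) and p-values were adjusted by Benjamini-Hochberg over all features, at 0.05. M14KD was compared with SCR within IP and within Input, and IP over Input and its change came from 1 model of 8 libraries. CPM used column totals, and log2 ratios per library pair a prior count of 2. Alternatives were DESeq2 1.42.0, other scalings and filters, left-out libraries, a replicate block, 1 model of 8 libraries, and other member rules; the unfiltered class medians and position bins were added after seeing the data.

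IP and Input share numbers 1 to 4 in the labels. Deviations of same-numbered libraries from their group means correlated at 0.216 in SCR and 0.122 in M14KD over 31921 sites with a mean count of at least 20. The numbers were taken to pair the libraries in the ratios per library pair and in the replicate block. The main fits used no such block and so ignore the pairing. The labels do not say what a number marks.

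Members and gene lists were chosen with earlier results of these data known. Named sites were, per comparison, called ones with groups that did not overlap, 1 per set, filled by unadjusted p, and the largest and smallest IP over Input ratios; named sets were those with most sites or Input reads, the 3 with most sites per class, and those holding list genes. Others, chosen after their values were seen, are the nested, divergent and partner examples. A few genes that the rule names are not reported here. On simulated data for IP sites (33348), 93.3% of 2-fold changes were recovered, and 23.3% for the change of IP over Input (33356 sites). Of 1.5-fold changes 59.7% and 5.26% were recovered, and for Input sites (30147) 25.4%.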

Additional observations from a re-analysis of the deposited data

How the results depend on the processing

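The shares of all sites and features called under the other settings are not given here. Counts of called sites and sets stayed within 1.5 times the main count, except as follows. IP sites between M14KD and SCR, 5 in the main test, numbered 0 in DESeq2, 1 with column totals, 1 with no filter, 3 with members on opposite strands only, and 0 to 31 without 1 library. IP gene sets, 0 in the main test, numbered 3 in DESeq2 and 0 to 7 without 1 library: 7 without library 1, 1 without library 2 (Pcx/Lrfn4) and 5 without library 4. In Input, 0 to 1 sites and 0 to 1 sets were called without 1 library, the set being Herc3/Nap1l5 without library 1 (0.54, SE 0.13, edgeR adjusted p = 0.0328). Members on opposite strands only, or 1 site per 100 bases, gave fewer calls of IP over Input because fewer sites were counted: 424 and 451 sites in SCR, 408 and 448 in M14KD, and 133 and 127 sets on opposite strands. The divergent median was -0.87 over every site with no filter, against -0.83. With the replicate block the counts were 0 for the change of IP over Input, 868 sites and 231 sets in SCR and 857 sites and 232 sets in M14KD; the pairing moved no count of calls by over 1.5 times. Of the named sites' values under other settings, none changed direction: 649 kept their side of the threshold, 32 no longer passed and 4 newly passed. The change of IP over Input rests on Input libraries with a median of 35 to 36 counts per site.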
